A study of Mus musculus with 6 samples.

Results

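Of 32 genes that serve cell division, 31 had a probe set with exactly 1 gene symbol, 30 were bright enough to be tested, and 0 of those 30 differed between wild type and laminin alpha 2 deficient hind limb muscle at an adjusted p under 0.05. The list holds G1 and G1/S cyclins, DNA replication factors, and mitotic regulators with proliferation markers. Each gene was read by the probe set with the highest mean signal over the 6 libraries. They stand among 13113 genes tested, of which 2.68% differed at an adjusted p under 0.05. Ccnb1, the gene of cyclin B1, had no such probe set. Tyms, the gene of thymidylate synthase, stayed below the filter on dim probe sets, a signal of 13.9, with signals of 8.6, 12.9 and 2.1 in wild type and 11.5, 24.9 and 6.9 in deficient libraries. Bub1, with signals between 2.3 and 33.4, and Aurkb, with signals between 8.6 and 24.7, lay just above that filter.

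The study measured RNA of hind limb skeletal muscle of 3 wild type and 3 laminin alpha 2 chain deficient mice, each 4 weeks old and each read on 1 Affymetrix array. The laminin alpha 2 chain is part of the laminin that ties muscle fibres to their basement membrane. The labels name no allele, strain or sex. Signals are the deposited linear intensities, and each log2 fold change sets deficient against wild type muscle after 16 was added to every signal, so that changes of dim genes come out too small. Means are given ± SD with n = 3 in each group.

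Growing cells pass from G1, where D and E type cyclins start the cycle, through S phase, where the MCM helicase opens DNA and nucleotide synthesis feeds the polymerases, into mitosis, where cyclin B and Cdk1, the Aurora and Polo kinases and the anaphase-promoting complex drive chromosome segregation. Muscle fibres themselves have left the cycle. Satellite cells divide when fibres regenerate, and immune, stromal and vascular cells in the tissue can divide as well. In whole muscle, fewer dividing cells and less RNA per dividing cell cannot be told apart.

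Lama2 itself fell in the deficient libraries, which read 82, 31.1 and 140.4 against 428.7, 415.6 and 326.2 in wild type (limma adjusted p = 0.0209). That call was lost without wild type replicate 1 (adjusted p = 0.104), wild type replicate 2 (adjusted p = 0.084) or deficient replicate 1 (adjusted p = 0.0591). Muscle fibre markers were bright in every library, with a summed signal of 8 genes from 93251 to 96753 in wild type and from 68282 to 92046 in deficient muscle. The Y-linked gene Eif2s3y read from 414.6 to 573.7 in replicates 1 and 2 of both groups, and 10.7 and 9.1 in replicate 3 of wild type and of deficient muscle, so Y-linked transcripts were near background in 1 library of each group. Wild type replicates 1 and 2 carried hair follicle transcripts, with Krt25 at 653.3 and 244.5 against 17.1 in wild type replicate 3 and at most 20.2 in deficient libraries. The actin control probes, whose 5′ to 3′ ratio falls as RNA is degraded, gave ratios of 1.04 to 1.15 in wild type and 0.51 to 0.819 in deficient libraries, while those of Gapdh overlapped, and their part in the results was not tested.

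By limma, 352 of 13113 genes or 2.68% changed, 1.24% higher and 1.44% lower in deficient muscle, and 0 of the 30 tested cell cycle genes were among them. An unadjusted p under 0.05 was reached by 3 of the 30, Mcm6, Mcm7 and Aurka, against 18.9% of all genes. The libraries of the groups did not overlap in 3 of the 30, Mcm3, Mcm7 and Ccne1, all higher in deficient muscle, against 24.7% of all genes in either direction and 12.3% higher and 12.4% lower. Neither share of the members exceeded that over all genes. Fold changes of the 30 ran from -0.91 to 0.83 on the log2 scale with a median of 0.19, against 0.02 over all genes, and 18 were positive and 12 negative. The 95% interval of the fold change lay within a 2-fold change in either direction for 17 of the 30, and for 10 of the 30 it did not exclude a 2-fold rise. These missed thresholds do not show that the members were equal in both groups. The members varied more between mice of a group than most genes did, with a median within-group SD of 0.457 on the log2 scale against 0.282 over all genes.

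**Figure D1:**
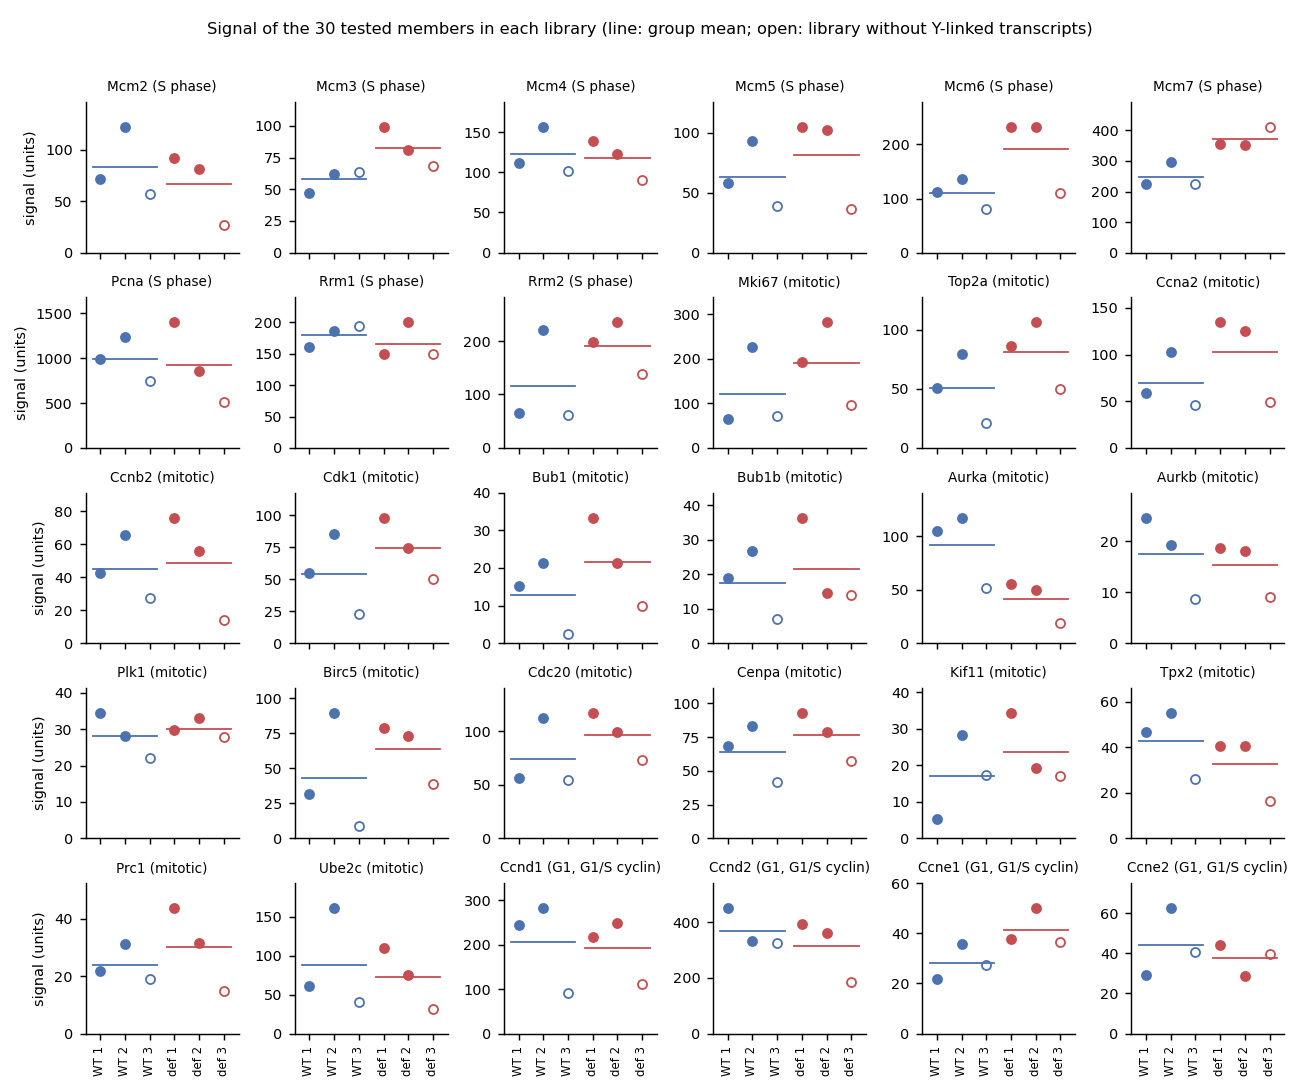
Signal in linear units (vertical axis from 0, scaled per gene) of each of the 30 tested members in the 3 wild type (WT, blue) and 3 deficient (def, red) libraries, with the group mean as a line and open circles for the library of each group without Y-linked transcripts. The open circle is the lowest point of its group in 24 of 30 members in wild type and in 27 of 30 in deficient muscle.

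Of the replication genes, those of the MCM helicase had fold changes from -0.32 to 0.68 with overlapping 95% intervals, and differences among them were not tested. Mcm7, a helicase subunit, read 225.2, 295.5 and 224.8 in wild type and 356.7, 351 and 410.6 in deficient libraries. All 3 deficient libraries lay above all 3 wild type libraries. The log2 fold change was 0.56 (SE 0.19, limma adjusted p = 0.146), and all 4 of its probe sets above the filter were positive, between 0.27 and 0.56. The groups overlapped in its probe set at 100.6, 138.4 and 125.1 against 160.5, 151.3 and 134.7. They also did in that at 50.3, 76 and 31.3 against 50.8, 65.5 and 79.6. A further probe set showed no overlap, at 55.4, 82 and 70.4 against 91.9, 113.5 and 111.1. Mcm3 read 47.2, 62.3 and 63.8 in wild type and 98.9, 80.9 and 68.3 in deficient libraries, again without overlap (log2 fold change 0.42, adjusted p = 0.323 by limma). In its other probe sets above the filter the groups overlapped, in the brightest of them at 28.6, 60.2 and 44.8 against 76.8, 48.3 and 65.9. Mcm6 read 112.1, 135.5 and 81 in wild type and 231.9, 231.6 and 110 in deficient libraries. Deficient replicates 1 and 2 stood above every wild type library, while deficient replicate 3 lay within their range. Its log2 fold change was 0.68 (SE 0.30, limma adjusted p = 0.254), and without deficient replicate 3 it was 1.00 with an adjusted p of 0.0381. When libraries with and without Y-linked transcripts were blocked, Mcm6 was called higher at an adjusted p of 0.0477 by limma. Of all genes, 1140 were called with that block and 667 without deficient replicate 3, against 352 in all 6 libraries without a block.

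In the brightest probe sets of the other helicase subunits the groups overlapped. Mcm2 read 71, 121.7 and 56.5 in wild type and 91.8, 81.2 and 26.6 in deficient libraries (log2 fold change -0.32, limma adjusted p = 0.694). Mcm4 read 111.1, 156.1 and 101.8 against 139.2, 122.9 and 89.8, a log2 fold change of -0.06. In its other probe set the groups did not overlap, at 35.8, 73.4 and 69.9 against 82.2, 95 and 85.8 (log2 fold change 0.49). With the mean of both probe sets the fold change of Mcm4 was 0.22. Mcm5 read 57.8, 93 and 38.8 against 104.6, 102.5 and 36.6 (log2 fold change 0.26, limma adjusted p = 0.755). By the brightest probe sets of Mcm2, Mcm4 and Mcm5 the lowest library of both groups was replicate 3.

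Pcna, the sliding clamp of DNA polymerase, read 990.2, 1232.8 and 749.5 in wild type and 1398.9, 854.1 and 512.5 in deficient libraries, with both the highest and the lowest value in deficient muscle. Ribonucleotide reductase makes deoxynucleotides from a large subunit, Rrm1, and a small subunit, Rrm2, whose level is tied to S phase. Rrm2 had the largest positive fold change of the members, 0.83 (SE 0.40, limma adjusted p = 0.305). It read 65.3, 220.2 and 61.7 in wild type and 199.2, 235 and 137.7 in deficient libraries, and wild type replicate 2 lay between deficient replicates 1 and 2. The large subunit Rrm1 read 160.5, 186.2 and 193.9 against 149, 200.1 and 149.9, a fold change of -0.11 (SE 0.19). The other Rrm2 probe sets above the filter gave 0.07 and 0.57. The other Rrm1 probe set above the filter gave -0.70, with 117.2, 216.7 and 126.3 against 127, 59.9 and 78.6. With the mean of its probe sets, Rrm1 had a fold change of -0.41.

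The mitotic genes varied from mouse to mouse and overlapped between the groups in all 17 tested. Of all genes, 24.7% showed no overlap. Mki67, the Ki-67 proliferation antigen, read 63.8, 226.8 and 71.3 in wild type and 193.6, 281.6 and 96 in deficient libraries. Its mean was 121 ± 92 in wild type and 190.4 ± 92.8 in deficient muscle, a log2 fold change of 0.68 (SE 0.46, limma adjusted p = 0.46). Wild type replicate 2 exceeded 2 of the 3 deficient libraries. Top2a, the topoisomerase that untangles sister chromatids, read 50.8, 79.5 and 20.9 against 86.2, 106.4 and 50.1 (log2 fold change 0.60, limma adjusted p = 0.403). Birc5, which encodes survivin of the chromosomal passenger complex, read 32, 89.7 and 8.7 against 79.2, 72.8 and 38.5 (log2 fold change 0.63, limma adjusted p = 0.505). In these genes too, replicate 3 or 1 was lowest in wild type and replicate 3 lowest in deficient muscle.

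Of the cyclin and kinase genes that start mitosis, Cdk1 read 54.8, 85.2 and 22.9 in wild type and 98.1, 74.2 and 50.1 in deficient libraries. Ccna2, the gene of cyclin A2, read 58.5, 102.3 and 46.5 against 134.5, 125.6 and 49.1. Ccnb2, the gene of cyclin B2, read 42.5, 65.8 and 27.3 against 76.1, 55.9 and 13.9, and its fold change of -0.02 (95% interval from -0.94 to 0.90) leaves a wide range. Plk1, the Polo-like kinase, was the steadiest of the mitotic genes, with 34.5, 28.1 and 22 in wild type and 29.7, 33 and 27.8 in deficient libraries (log2 fold change 0.07, SE 0.23).

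Aurka, the Aurora A kinase of the spindle poles, had the most negative fold change of the members. It read 105.3, 117.7 and 52.1 in wild type and 55.4, 49.7 and 19.3 in deficient libraries. Deficient replicate 1 lay above wild type replicate 3, so the groups overlapped. The mean was 91.7 ± 34.9 in wild type and 41.5 ± 19.4 in deficient muscle, a log2 fold change of -0.91 (SE 0.34, limma adjusted p = 0.187). When libraries with and without Y-linked transcripts were blocked, the limma adjusted p was 0.0191, in a fit that called 1140 of all genes. The difference was -0.89 between the libraries with Y-linked transcripts and -0.95 between the pair without them. Tpx2, which activates Aurora A on the spindle, read 46.8, 55.1 and 26 against 40.6, 40.7 and 16.5 (log2 fold change -0.28, limma adjusted p = 0.667). Aurkb, the Aurora B kinase of the passenger complex, read 24.7, 19.4 and 8.6 against 18.8, 18.2 and 9 (log2 fold change -0.08). Hair follicle and epidermis markers were also lower in deficient libraries. Their summed signal over 13 genes was 2395, 1048 and 165 in wild type and 123, 111 and 106 in deficient libraries. Of the 13, 0 were listed at 0 in any library, but Tchh read 1.9, 0.2 and 3.9 in deficient libraries, below the filter of 13.9. The part of these markers in the level of Aurka was not tested.

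None of the remaining mitotic genes was called. The checkpoint kinase gene Bub1 and its relative Bub1b gave 0.39 and 0.16. Genes of the anaphase-promoting complex, its activator Cdc20 and its ubiquitin-conjugating enzyme Ube2c, gave 0.36 and -0.16. Cenpa, the centromeric histone, gave 0.22, the spindle motor Kif11 gave 0.30 and the midzone protein Prc1 gave 0.16. Their limma adjusted p lay between 0.526 and 0.887.

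**Figure D2:**
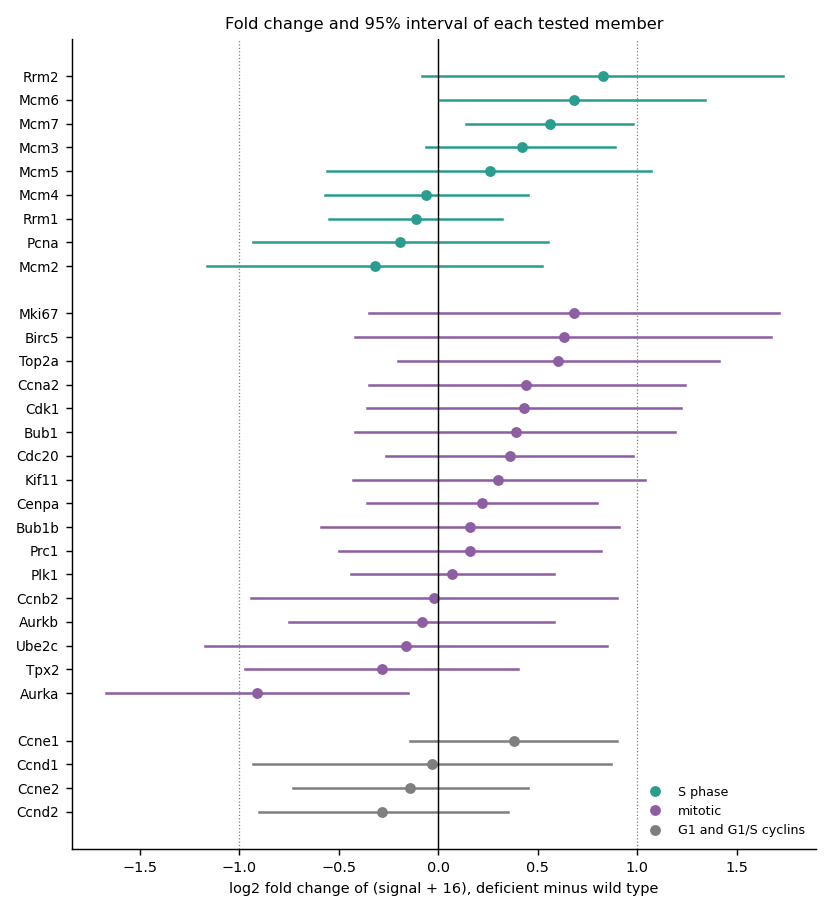
Log2 fold change of signal + 16, deficient minus wild type (horizontal axis), of each tested member with its 95% interval as a line, coloured by role, with dotted lines at a 2-fold change. The intervals of Mcm6, Mcm7 and Aurka leave out 0, and those of the other 27 members hold it.

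Of the D type cyclins, which answer growth signals, and the E type cyclins, which open S phase, 0 of 4 were called, and the groups overlapped in all but Ccne1. Over all genes, 2.68% were called and 24.7% showed no overlap. Ccnd1 read 244.8, 282.1 and 91.8 in wild type and 216.4, 249.4 and 112 in deficient libraries. Ccnd2 read 451.5, 331.9 and 326.3 against 393.5, 363.4 and 186.2, and 4 of its 6 probe sets above the filter were negative and 2 positive. Replicate 3 was lowest in both groups for both genes. Ccne1 read 21.6, 35.7 and 27.2 in wild type and 37.7, 50.1 and 36.4 in deficient libraries, without overlap between the groups (log2 fold change 0.38, limma adjusted p = 0.411). In its other probe set the groups overlapped, at 4.6, 36.5 and 26.3 against 33.7, 34 and 26. Ccne2 read 29, 62.6 and 40.5 against 44.1, 28.6 and 39.7 (log2 fold change -0.14, limma adjusted p = 0.824). Over the member list, 17 genes had several probe sets above the filter, and these pointed one way in 15 and both ways in Ccnd2 and Mcm4.

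S phase and mitotic members were set against each other as lists, with no test, since members are not replicates. Of 9 tested S phase members, 5 had a positive and 4 a negative fold change, with a median of 0.26 on the log2 scale. Of 17 tested mitotic members, 12 were positive and 5 negative, with a median of 0.22. Without Mki67, Top2a and Ccna2 the mitotic median was 0.16. Single libraries moved the S phase and the mitotic medians. With wild type replicate 2, wild type replicate 3, deficient replicate 1, deficient replicate 2 or deficient replicate 3 left out, the S phase median was 0.46, 0.02, 0.05, 0.07 and 0.49, and the mitotic median 0.39, 0.00, 0.13, 0.27 and 0.42. Over all genes tested, 52.6% were positive. Relative to the wild type mean, the mean log2 level of the mitotic members was -0.03, 0.50 and -0.48 in wild type and 0.51, 0.33 and -0.32 in deficient libraries. That of the S phase members was -0.13, 0.38 and -0.25 in wild type and 0.48, 0.41 and -0.21 in deficient libraries. Both lists were high in wild type replicate 2 and deficient replicates 1 and 2, and low in replicate 3 of both groups. The S phase mean minus the mitotic mean was -0.10, -0.12 and 0.23 in wild type and -0.03, 0.07 and 0.11 in deficient libraries, so the groups overlapped in the balance of both lists.

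In the mitotic genes, libraries of a group lay further apart than the genotypes. Deficient replicate 3 was the lowest of its group in 17 of 17 mitotic members, and wild type replicate 3 in 15 of 17. Over all genes these libraries were lowest in 40.2% and 35.3%. Wild type replicate 2 was the highest of its group in 15 of 17 and deficient replicate 1 in 13 of 17, against 26.4% and 31.4% over all genes. Within wild type the mitotic mean of replicate 3 lay 0.72 below that of replicates 1 and 2 on the log2 scale, and within deficient muscle 0.74 below. The difference between genotypes was 0.18 between the libraries with Y-linked transcripts and 0.16 between the pair without them. For the S phase members it was 0.32 and 0.05. Each group holds 1 library without Y-linked transcripts, and both carry the replicate number 3, so Y-linked transcripts and other properties of these libraries cannot be told apart.

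**Figure D3:**
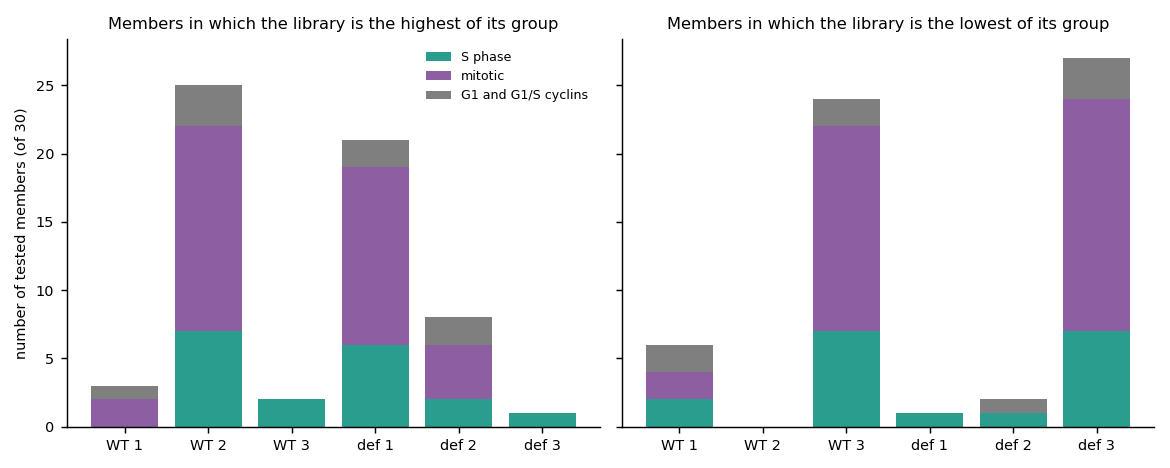
Number of the 30 tested members (vertical axis, stacked by role) in which each library had the highest (left) or the lowest (right) level of its group of 3. Wild type replicate 2 was highest in 25 members and wild type replicate 3 lowest in 24, and deficient replicate 3 was lowest in 27.

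Markers of blood cells and their precursors also differed between the libraries. Transcripts of neutrophils and their marrow precursors, 8 genes, summed to 434.5, 2988 and 1291 in wild type and to 2154, 6115 and 611.3 in deficient libraries. Much of that sum came from S100a8 and S100a9, which mature neutrophils also carry, at 2219 and 2200.3 in deficient replicate 2. Mpo, a granule gene made in neutrophil precursors, read 15.5, 105.3 and 35.1 in wild type and 63.2, 177.4 and 23.9 in deficient libraries. Erythroid precursor markers, 6 measured of 8, summed to 234.1, 734.4 and 151.7 against 200.1, 552.6 and 161.2. Replicate 2 of each group held the highest sums of both lists, and wild type replicate 2 and deficient replicates 1 and 2 were also the libraries with high mitotic levels. The orders differed as well. In wild type, replicate 1 had the lowest neutrophil sum and not the lowest mitotic mean. Deficient replicate 1, with the highest mitotic mean, had an erythroid sum of 200.1 against 161.2 in deficient replicate 3. Much of that sum came from Alas2, at 116.7 and 112.1 in these 2 libraries. The others read 27.7 and 3.4 (Klf1), 30.8 and 31 (Ermap), 11.2 and 9.1 (Rhag), 5.9 and 2.9 (Epb42), and 7.8 and 2.7 (Tspo2). None of the neutrophil or erythroid markers was listed at 0 in any library, but some signals lay below the filter of 13.9. In wild type replicate 1, Rhag read 0.6 and Klf1 2.2. The part of these markers in the levels of the cell cycle genes was not tested. Without replicate 2 of both groups, a fit chosen after seeing the data, 0 of 29 tested members were called and 11 of all genes.

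Satellite cell and myoblast markers, 9 genes, summed to 1071, 1094 and 687.9 in wild type and to 1946, 2402 and 1578 in deficient libraries, without overlap between the groups. Of the 9, 8 had a positive fold change, against 52.6% of all genes. Without overlap, 5 of the 9 were higher in deficient muscle, against 12.3% of all genes: Mymx, Mymk, Myog, Itga7 and Myf5. Of the 9, 1 was called, against 2.68% of all genes. That was Mymx, a gene of myoblast fusion (2.9, 16.9 and 13.1 against 253.1, 344.1 and 177.5, limma adjusted p = 0.0011). Pax7, which marks satellite cells, averaged 50.2 ± 0.666 in wild type and 54.6 ± 12.4 in deficient muscle, and Myod1, of activated myoblasts, 155 ± 41.9 and 152.9 ± 52.3, both with overlap between the groups. Macrophage markers, 10 genes, summed to 2998, 2501 and 2017 in wild type and to 8157, 5831 and 3347 in deficient libraries, again without overlap. In deficient muscle the macrophage sum and the mitotic mean had the same order over the 3 libraries. In wild type they did not, since replicate 1 had the highest macrophage sum and replicate 2 the highest mitotic mean. In wild type the satellite cell sum had the order of the mitotic mean. In deficient muscle it was highest in replicate 2 and lowest in replicate 3. The same held for fibroblast markers, 7 genes, at 24137, 26468 and 17210 in wild type and 27062, 28874 and 21510 in deficient libraries. Endothelial markers, 8 genes, had another order in both groups, at 2344, 2030 and 1511 against 1644, 1325 and 1850. None of the satellite cell, macrophage, fibroblast or endothelial markers was listed at 0. Some signals lay below the filter of 13.9, such as Mymx at 2.9 in wild type replicate 1. The part of these markers in the mitotic levels was not tested.

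**Figure D4:**
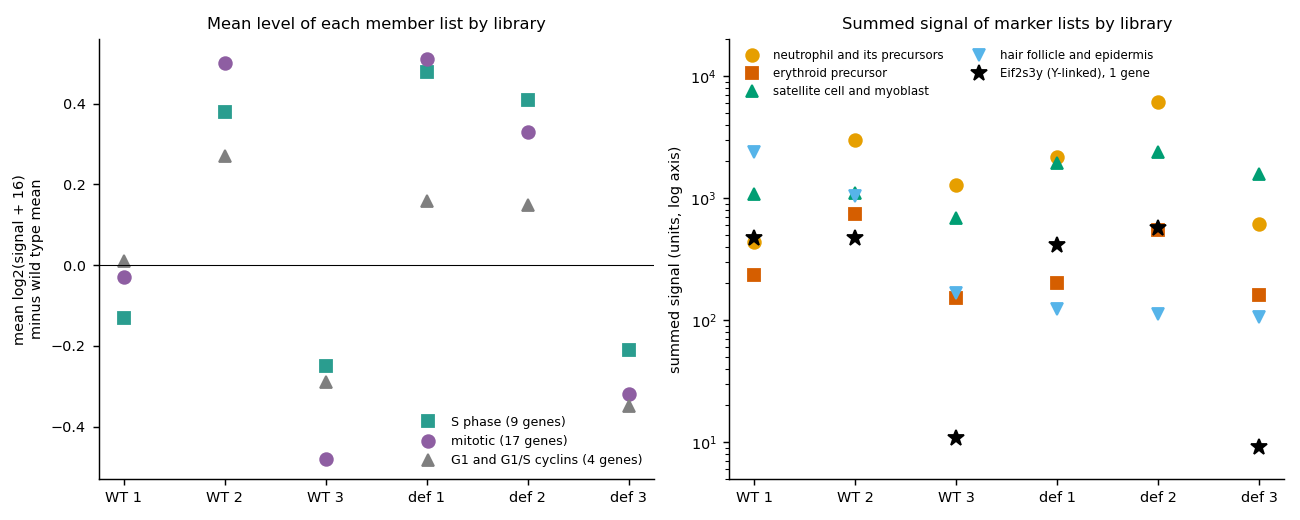
Left, mean log2(signal + 16) minus the wild type mean (vertical axis) of the S phase, mitotic and G1 or G1/S cyclin members in each library. Right, summed signal in units on a log axis of marker lists and of the Y-linked gene Eif2s3y, which is near background in replicate 3 of both groups, where the mitotic mean is -0.48 and -0.32.

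S phase members differed in how closely they followed the mitotic mean over the 6 libraries, given here as a description. By Pearson's r, Mcm5 was closest to it (r = 0.97, Spearman rho = 0.89, n = 6), then Mcm4 (r = 0.92, rho = 0.89), while by Spearman's rho Mcm6 was (r = 0.82, rho = 0.94). Mcm2, Pcna and Rrm2 had an r of 0.82, 0.81 and 0.79 and a rho of 0.89, 0.89 and 0.71. Rrm1, read by its brightest probe set alone, did not follow it (r = 0.02, rho = -0.31), and Mcm7 and Mcm3 did so loosely (r = 0.32 and 0.46). Without wild type replicate 3 and deficient replicate 3, the libraries farthest from the median, r was 0.91 for Mcm5 and for Rrm2, 0.89 for Mcm4, 0.81 for Mcm7, 0.80 for Mcm2, 0.75 for Mcm3, 0.60 for Pcna, 0.59 for Mcm6 and 0.13 for Rrm1. The gene outside the list most like the mitotic mean was Pbk, a kinase active in mitosis (r = 0.99, rho = 1, and 0.98 without those libraries). Pbk read 41.3, 77.4 and 17.6 in wild type and 91.5, 69.4 and 26.4 in deficient libraries. Next came Ssr2, of the translocon of the endoplasmic reticulum, and Fut11, a fucosyltransferase gene, both at r = 0.98. Of 13083 genes outside the list, 114 had an r above 0.9.

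Promoter windows are given as a description of the members. The motifs searched are ones known from cell cycle genes, so high shares in this list are no independent result. The 250 bases before the start were searched on both strands in the RefSeq promoter table of GRCm38.p6, which matched 25 of the 32 members in 27 windows, with 2 windows each for Mcm7 and Prc1. The 2 windows of Prc1 overlap and are counted separately. Searched were the CCAAT box, the cell cycle genes homology region (CHR, TTTGAA or TTTAAA) that the MuvB complex binds, and E2F letters (TTTCCCGC, TTTCGCGC, TTTGCCGC or TTTGGCGC). Matches of one motif on opposite strands may overlap. A match shows letters and no binding. CHR letters stood in 12 of 16 mitotic windows and 2 of 10 S phase windows, against 25.2% of all 32851 windows. CCAAT stood in 15 of 16 and 9 of 10, against 33.8% of all windows. E2F letters stood in 3 of 10 S phase windows, of Mcm6, Mcm7 and Mcm5, and in 1 of 16 mitotic windows, that of Cdk1, against 1.86% of all windows. Of the 2 windows of Mcm7 only 1 held E2F letters, and the other held 0 E2F matches and 1 CCAAT box.

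The following windows are shown 5′ to 3′ in the direction of the gene for the members on which the results turn: Mcm6 and Mcm7, with an unadjusted p under 0.05, Rrm2, with the largest positive fold change, Aurka, with the most negative one, and Cdk1 and Ccnb2 as the partners that start mitosis. Capitals mark CCAAT, CHR and E2F letters on either strand. For Mcm7 the window with E2F letters is shown.
Mcm6, chr1:128359706-128359955, minus strand: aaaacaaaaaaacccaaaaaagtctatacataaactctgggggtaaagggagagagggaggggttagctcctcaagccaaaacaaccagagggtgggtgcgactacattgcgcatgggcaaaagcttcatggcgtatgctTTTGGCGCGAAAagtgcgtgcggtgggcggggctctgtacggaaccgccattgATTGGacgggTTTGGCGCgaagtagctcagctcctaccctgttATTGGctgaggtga
Mcm7, chr5:138171884-138172133, minus strand: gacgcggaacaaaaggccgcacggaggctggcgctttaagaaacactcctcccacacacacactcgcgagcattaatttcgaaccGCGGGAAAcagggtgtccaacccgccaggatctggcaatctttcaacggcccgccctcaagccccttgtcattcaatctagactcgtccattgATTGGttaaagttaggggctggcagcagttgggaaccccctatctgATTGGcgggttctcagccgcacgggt
Rrm2, chr12:24708004-24708253, plus strand: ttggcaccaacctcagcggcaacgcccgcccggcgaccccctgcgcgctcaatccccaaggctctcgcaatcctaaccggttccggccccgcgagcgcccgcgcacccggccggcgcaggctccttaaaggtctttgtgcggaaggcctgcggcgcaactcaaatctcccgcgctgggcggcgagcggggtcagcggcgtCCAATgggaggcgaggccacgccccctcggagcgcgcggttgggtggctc
Aurka, chr2:172370571-172370820, minus strand: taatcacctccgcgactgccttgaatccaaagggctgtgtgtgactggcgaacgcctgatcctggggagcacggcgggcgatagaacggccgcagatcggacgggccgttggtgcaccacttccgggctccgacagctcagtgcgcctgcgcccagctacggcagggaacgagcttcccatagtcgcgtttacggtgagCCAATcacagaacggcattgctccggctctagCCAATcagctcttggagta
Cdk1, chr10:69352913-69353162, minus strand: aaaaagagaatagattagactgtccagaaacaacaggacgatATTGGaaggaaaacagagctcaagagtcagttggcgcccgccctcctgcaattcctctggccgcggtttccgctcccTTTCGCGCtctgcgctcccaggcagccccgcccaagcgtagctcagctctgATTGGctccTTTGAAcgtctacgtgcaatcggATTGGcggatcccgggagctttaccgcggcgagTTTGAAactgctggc
Ccnb2, chr9:70421555-70421804, minus strand: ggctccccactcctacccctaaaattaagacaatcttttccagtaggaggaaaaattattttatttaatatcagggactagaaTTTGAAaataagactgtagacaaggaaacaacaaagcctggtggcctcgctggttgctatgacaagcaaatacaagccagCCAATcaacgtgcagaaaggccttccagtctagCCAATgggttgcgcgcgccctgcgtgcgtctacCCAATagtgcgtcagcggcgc
Of these, Mcm6 holds 3 E2F matches and 2 CCAAT boxes and no CHR letters, while Cdk1 holds 2 CHR matches, 1 E2F match and 3 CCAAT boxes. Aurka and Rrm2 hold CCAAT boxes only.

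Around the members, 2 regulators of the cycle changed. Cdkn1a, the p53-induced inhibitor of cyclin-dependent kinases, rose from 231.9, 130.4 and 185 in wild type to 611.9, 910.7 and 1948 in deficient libraries (log2 fold change 2.43, SE 0.38, limma adjusted p = 0.0153). The highest of these, deficient replicate 3, was the library in which all 17 mitotic members were lowest of their group. In wild type, replicate 3 had the lowest mitotic mean and an intermediate Cdkn1a signal, and a relation between them was not tested. The call of Cdkn1a was lost without wild type replicate 1 (adjusted p = 0.052), wild type replicate 2 (adjusted p = 0.0638) or deficient replicate 2 (adjusted p = 0.0651). Of 6 tested genes of kinase inhibitors, 1 rose and 0 fell, and of 17 tested genes of the RB, E2F, MuvB and MYB families, 0 rose and 1 fell. Over all genes, 1.24% rose and 1.44% fell. The gene that fell was E2f6, a repressor of the E2F family, which fell from 825, 731.6 and 882.6 to 383.7, 500.2 and 488.8 (log2 fold change -0.81, SE 0.18, limma adjusted p = 0.0469). It was lost under quantile normalization (adjusted p = 0.0641), without a filter (adjusted p = 0.0548), without an intensity trend (adjusted p = 0.086) and without wild type replicates 1, 2 or 3 or deficient replicates 1 or 2 (adjusted p = 0.165, 0.132, 0.131, 0.104 and 0.112).

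None of the other pathway lists held a call by limma, and their counts at an unadjusted p under 0.05 stand against 18.9% of all genes. Of 7 tested G1 kinases and partners, 0 were called and 1 had an unadjusted p under 0.05. That was Cdk6, a kinase of the D type cyclins, which read 103.1, 111.9 and 89.7 in wild type and 153.7, 242.9 and 200.5 in deficient libraries (log2 fold change 0.85, SE 0.21, limma adjusted p = 0.0672). With a block for Y-linked transcripts its limma adjusted p was 0.0302, in a fit that called 1140 of all genes. Of 15 tested genes of origin licensing and firing, 0 were called and 2 had an unadjusted p under 0.05, led by the origin recognition gene Orc2 (limma adjusted p = 0.145). Of 23 genes of the replication fork and nucleotide supply, 0 were called and 2 had an unadjusted p under 0.05, led by the polymerase delta gene Pold1 (limma adjusted p = 0.164). Of 26 further mitotic genes, 0 were called and 1 had an unadjusted p under 0.05, the condensin gene Smc4 (limma adjusted p = 0.251). Their medians were 0.32, 0.19, 0.02 and 0.18 on the log2 scale in that order.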

How the data were processed

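Deposited was a linear intensity for each of 45101 probe sets on every array. How it was calculated from the scans is not given in the sources. Each array had a trimmed mean of 100 (2% at each end), and array medians on the scale of log2(signal + 16) differed by at most 0.226, so no further normalization was applied. Gene names come from the platform annotation, of which 34945 probe sets had 1 symbol, updated through Entrez identifiers to RefSeq. Probe sets with a mean log2 value below the 40th percentile were left out. The comparison used limma (version 3.58.1, R version 4.3.3), by lmFit and then eBayes with trend, as a two-sided test without a block and with Benjamini-Hochberg adjustment over 13113 genes. The labels call the samples biological replicates. Steps were tested on simulated data. The members and lists were chosen with earlier results of these data known. Named were Lama2, all members, the called genes of each pathway list or else its smallest p, and the 3 genes most like the mitotic mean. Alternatives were centring, quantile normalization, other filters, pseudocounts, priors and uses of several probe sets, blocks for replicate number and Y-linked transcripts (Eif2s3y signal above 100), and libraries left out. Changed member lists, such as a mitotic list without Mki67, Top2a and Ccna2, were alternatives too. Fits without replicate 2 of both groups and with the 4 libraries that carry Y-linked transcripts were added after seeing the data.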

Additional observations from a re-analysis of the deposited data

How the results depend on the processing

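The number of members called was 0 in 9 alternatives that changed normalization, filter, pseudocount, probe set use or prior, and 0 to 1 with 1 library left out. It was 1 with the replicate block (Aurka), 2 with the block for Y-linked transcripts (Aurka and Mcm6) and 1 in the 4 libraries with Y-linked transcripts (Mcm6, adjusted p = 0.0432). Deviations of same-numbered libraries correlated at 0.15, 0.07 and 0.30, so replicate numbers were not taken as pairs. Over all genes, 352 were called, against 216 without a filter, 167 without an intensity trend, 857 with the replicate block, 1140 with the block for Y-linked transcripts, 11 without replicate 2 of both groups, 824 in the libraries with Y-linked transcripts and 64 to 667 with 1 library left out. The S phase median minus the mitotic median was 0.04, against -0.14 with a filter at the 60th percentile, -0.23 with wild type replicates 1 and 2 left out (values only) and -0.21 to 0.07 with 1 library left out. It was 0.10 without Mki67, Top2a and Ccna2 in the mitotic list. The cause of these shifts was not tested. Of 560 member values under alternatives, 528 kept direction and side of the threshold, 5 were called only there and 27 turned sign, 0 of them called. Turned signs with 1 library left out gave ranges of Ccnd1 -0.49 to 0.29, Ccnd2 -0.46 to 0.05, Ccne2 -0.33 to 0.07, Mcm2 -0.57 to 0.10, Mcm4 -0.18 to 0.11, Pcna -0.54 to 0.17, Ccnb2 -0.35 to 0.46, Bub1b -0.09 to 0.39, Aurkb -0.29 to 0.07, Plk1 -0.03 to 0.17, Cenpa -0.01 to 0.39, Prc1 -0.05 to 0.42 and Ube2c -0.51 to 0.31. Others were Mcm4 at 0.22 with the mean of probe sets, Ccnb2 at 0.02 with a pseudocount of 64 and at 0.23 in the libraries with Y-linked transcripts, and, without replicate 2 of both groups, Ccnd1 at 0.04, Ccne2 at 0.20, Mcm4 at 0.07, Ccnb2 at 0.06 and Ube2c at 0.23. The number of arrays and signals near background limit the dim mitotic genes.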

Other observations

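Inhibitor genes differed among themselves. Cdkn1b, the p27 inhibitor, read 270.9, 367.7 and 563.4 in wild type and 263.1, 352.2 and 522.8 in deficient libraries, highest in replicate 3 of both groups, where the mitotic members were low (log2 fold change -0.07, limma adjusted p = 0.934). Cdkn1c, the p57 inhibitor, read 709.2, 832 and 247.8 in wild type and 492.5, 583.5 and 463.7 in deficient libraries, lowest in replicate 3 of both groups (limma adjusted p = 0.964). Rb1, the retinoblastoma gene, read 292.5, 233.2 and 378.7 against 392.7, 419.1 and 544.7, highest in replicate 3 of both groups and without overlap between the groups (log2 fold change 0.57, limma adjusted p = 0.203). Myog, which marks myoblasts that are leaving the cycle, read 269.1, 308.8 and 55.2 against 597.9, 794.5 and 459.4. These genes were picked after their values were seen, and the libraries share their order with other properties of the mice.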
